A study of Sus scrofa with 9 samples.

Results

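The NF-κB and inhibitor family in swine MSCs was followed through 10 genes, BCL3, NFKB1, NFKB2, REL, RELA, RELB, NFKBIA, NFKBIB, NFKBIE and NFKBIZ. The family was chosen because BCL3 had high 5hmC in Obese-MSCs, so the Obese and Lean values of BCL3 are given as a description without a test. All 10 genes were present among the 18933 genes of the table of Obese- and Lean-MSCs and among the 18992 genes of the table of vitamin-C-treated and untreated Obese-MSCs. The measurement was hMeDIP-seq, in which sonicated DNA is captured with an antibody to 5-hydroxymethylcytosine (5hmC) and sequenced, and the reads falling on the exons of each gene are counted.

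The cells were mesenchymal stem/stromal cells cultured from subcutaneous abdominal fat of female domestic pigs that were 3 months old when their diets began. Lean pigs ate standard chow, Obese pigs ate a high-fat/high-fructose diet for 16 weeks, and 3 libraries were made in each of 3 groups. Lean-MSCs are libraries 7, 8 and 9, and untreated Obese-MSCs are libraries 1, 2 and 3. Obese-MSCs given vitamin-C (L-ascorbic acid, 50 µg/mL for 48 h) are libraries 4, 5 and 6. By the study's methods, treated and untreated Obese-MSCs alike went through a further passage. Vitamin-C was added in culture and no animal received it, Lean-MSCs were not treated, and the labels match no treated culture to an untreated culture of its pig. By the study's account the growth medium itself held some vitamin-C, so untreated Obese-MSCs and Lean-MSCs were not free of it. Values are normalized counts, a 5hmC signal that is relative within a table, and because the tables were normalized separately the groups are compared only within a table. In such bulk samples, fewer cells carrying the mark and less of the mark per cell cannot be told apart.

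NF-κB is a family of dimeric transcription factors held in the cytoplasm by inhibitor proteins of the IκB group and released when IκB kinase marks those inhibitors for degradation. It is best known for switching on inflammatory cytokines, adhesion molecules and survival genes, and in adipose tissue it is a central mediator of the low-grade inflammation of obesity. BCL3 belongs to the IκB family by its structure but works in the nucleus, where it binds dimers made of NFKB1 or NFKB2 products and can raise or lower the transcription of their targets. 5hmC is made from 5-methylcytosine by the TET enzymes, for which vitamin-C is a cofactor, and in gene bodies it is commonly found at transcribed genes.

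Library totals lay between 494566 and 522269 normalized counts in the table of Obese- and Lean-MSCs and between 547242 and 593846 in the other. The lowest values lay in steps of 0.739 to 1.22 and of 0.821 to 1.33 normalized counts, so a gene with a handful of normalized counts rests on few reads, and the exact depth is unknown. The vitamin-C library 6 stood furthest from its own group, with a median Pearson's r across genes of 0.865 (genes are not independent replicates). Of the 4 MSC marker genes THY1, NT5E, ENG and CD44, ENG alone was higher in all Obese libraries. Its lowest Obese value, 52.0, exceeded its highest Lean value, 51.7, by less than 1 step of the low values. Over all genes, 5.7% had Obese libraries that were all higher. The summed signal of the 4 marker genes was 285 to 318 normalized counts in Obese-MSCs and 232 to 299 in Lean-MSCs. PTPRC and CD34, leukocyte and endothelial markers whose protein MSCs lack, carried signal in every library, and CD14 was at 0 in all Lean libraries, with 0.650, 0.924 and 4.49 in Obese libraries. The summed signal of these 3 genes was 60.6 to 71.6 in Obese-MSCs and 66.9 to 89.4 in Lean-MSCs. Exonic 5hmC is a mark on DNA and does not show whether a marker was expressed, and the part of these marker differences in the results was not tested.

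BCL3 lies on chromosome 6 in Sscrofa11.1, from 51256033 to 51264923, and had 28.5, 36.1 and 36.4 normalized counts in Obese libraries against 18.0, 16.9 and 15.4 in Lean libraries. Every Obese library lay above every Lean library, and the means were 33.6 ± 4.47 and 16.8 ± 1.32 (SD, n = 3 each). This is a 2.00-fold ratio, or 1.00 on the log2 scale, which lay between 0.94 and 1.11 when each library was left out in turn. These are the values on which the family was chosen.

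**Figure D1:**
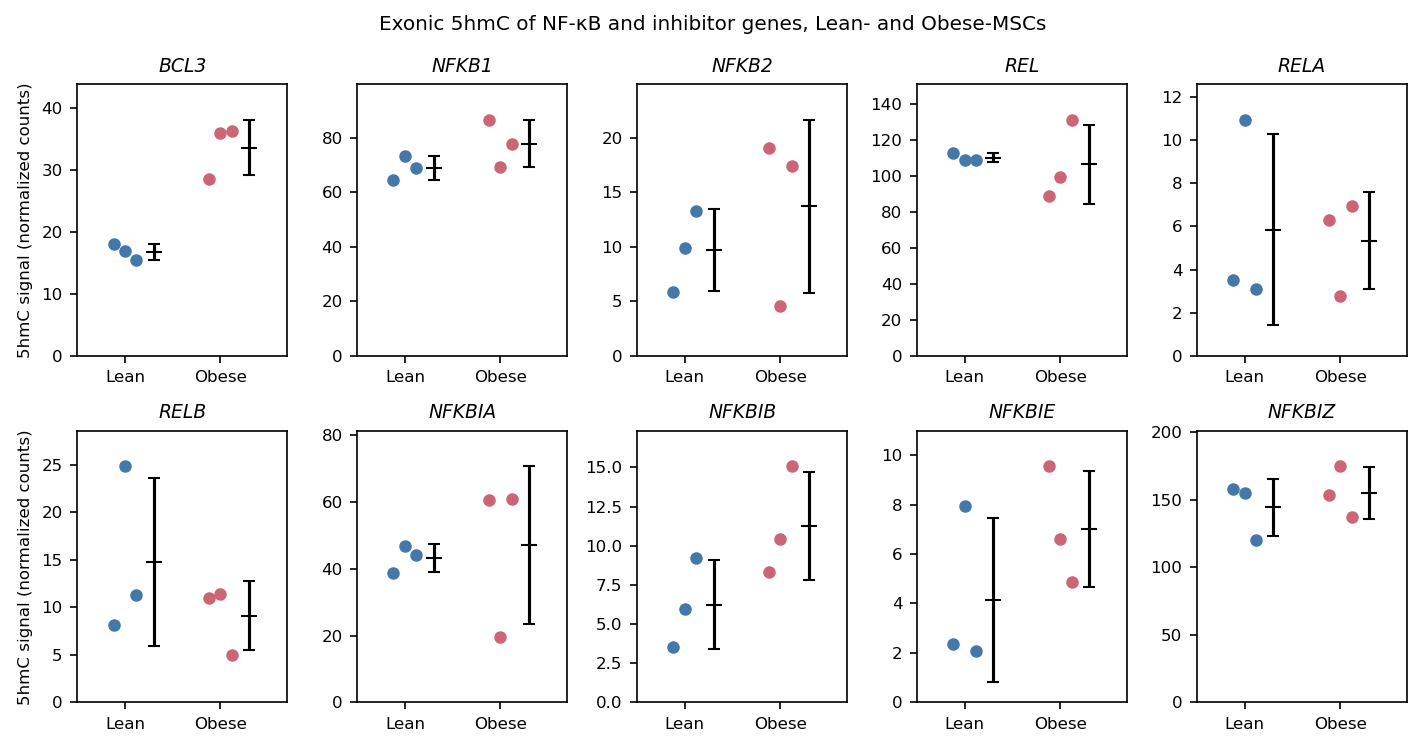
5hmC signal in normalized counts (vertical axes, each from 0) of the 10 genes in Lean-MSCs (blue) and untreated Obese-MSCs (red); points are libraries and bars are mean ± SD (n = 3 each). BCL3 is the one gene whose groups are apart, at 15.4 to 18.0 and 28.5 to 36.4, and the values of the other 9 genes overlap.

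By the study's criteria (an equal-variance, two-sided test of the deposited values with an unadjusted p of 0.05 or less, and a ratio of at least 1.4 for high or at most 0.7 for low 5hmC), BCL3 alone of the 10 genes was high in Obese-MSCs and none was low. Over all 18933 genes, 2.07% met these criteria as high and 2.43% as low. Both shares are lower than those the study reported over the same number of genes, so its own calls were not reproduced exactly. Only BCL3 had groups without overlap and the other 9 genes had groups that overlapped, while over all genes the Obese libraries were all higher in 5.7% and all lower in 6.06%. Since BCL3 was the reason for the choice, nothing is read from its count of 1. With limma on log2(value + 1), 0 of the other 9 genes passed a Benjamini-Hochberg adjusted p of 0.05 and 0 had an unadjusted p of 0.05 or less. Among all 15146 genes tested by limma, 0 (0%) passed the adjusted p and 1031 (6.81%) had an unadjusted p of 0.05 or less. The adjusted p of the 9 genes lay between 0.762 and 0.99997 in limma, and their two-sided exact permutation p between 0.2 and 1, where 0.1 is the smallest that 3 against 3 libraries can give. The series' design gives 3 pigs per diet, and these p-values measure the spread between their libraries.

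Among the transcription factor subunits, NFKB1 encodes the precursor that is processed to the shorter DNA-binding partner of RELA in the classical pathway. It lies on chromosome 8 from 118391010 to 118478927 and had 86.5, 69.2 and 77.7 normalized counts in Obese libraries against 64.5, 73.5 and 68.8 in Lean libraries. Obese library 2 lay within the Lean range, and the difference on the log2(value + 1) scale had a 95% interval of -0.28 to 0.62 around 0.17 (limma adjusted p = 0.920).

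NFKB2 is its counterpart in the alternative pathway and lies on chromosome 14 from 113406412 to 113414177. Its values were 19.1, 4.61 and 17.4 in Obese libraries against 5.83, 9.93 and 13.3 in Lean libraries. Obese library 2 was the lowest of all 6 and the other Obese libraries were the highest, so the groups overlapped through this library alone. The log2 ratio of means was 0.50 with all libraries and 0.91 without Obese library 2, and the interval of -0.63 to 1.27 includes differences of more than 2-fold.

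REL, a transactivating subunit with its main known roles in lymphocytes, lies on chromosome 3 from 80861862 to 80912233. It had 89.0, 99.5 and 131 normalized counts in Obese libraries against 113, 109 and 109 in Lean libraries, with a coefficient of variation of 20.7% in Obese-MSCs and 2.09% in Lean-MSCs. The Obese values lay on both sides of the narrow Lean range, with a log2 ratio of means of -0.05 and an interval of -0.50 to 0.36 in limma.

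RELA, the principal transactivating subunit of the classical pathway, lies on chromosome 2 from 6594869 to 6602684 and carried low signal. Its values were 6.30, 2.79 and 6.96 in Obese libraries against 3.51, 10.9 and 3.11 in Lean libraries. Lean library 8 was the highest and Obese library 2 the lowest. The log2 ratio of means was -0.13 with all libraries, 0.69 without Lean library 8 and 0.18 without Obese library 2, so its sign changed with either, and the limma interval was -1.08 to 1.07.

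RELB, the transactivating partner of NFKB2 products in the alternative pathway, lies on chromosome 6 from 51444670 to 51480350, starting 180 kb after the end of BCL3. It had 11.0, 11.4 and 4.97 normalized counts in Obese libraries against 8.17, 24.8 and 11.3 in Lean libraries. Lean library 8 stood above the other 5 libraries. RELB had the lowest log2 ratio of means of the 10 genes, -0.69, and without Lean library 8 it was -0.09 (limma interval with all libraries -1.45 to 0.30). BCL3 and RELB had log2 ratios of opposite sign, but the family was chosen on that of BCL3, so no contrast is read from them.

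Among the inhibitors, NFKBIA encodes IκBα, the classical cytoplasmic inhibitor, which is itself induced by NF-κB. It lies on chromosome 7 from 64508119 to 64510754 and had 60.4, 19.7 and 60.7 normalized counts in Obese libraries against 38.6, 46.7 and 44.2 in Lean libraries. Obese library 2 was the lowest of the 6 and both other Obese libraries lay above all Lean libraries. The log2 ratio of means was 0.12 while limma's difference of mean log2(value + 1) was -0.04, with an interval of -0.75 to 0.67 and an adjusted p of 0.992. Without Obese library 2, NFKBIA met the study's criteria as high, with a ratio of 1.405, and its adjusted p in limma was 0.714.

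NFKBIB encodes IκBβ, which is degraded more slowly than IκBα, and lies on chromosome 6 from 47703644 to 47712661, 3543 kb before BCL3. Its values were 8.31, 10.4 and 15.1 in Obese libraries against 3.53, 5.96 and 9.21 in Lean libraries. The groups overlapped because Obese library 1 lay below Lean library 9. The log2 ratio of means was 0.85, between 0.57 and 1.25 with each library left out, and limma gave an interval of -0.05 to 1.66 with an adjusted p of 0.762.

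NFKBIE encodes IκBε, a further cytoplasmic inhibitor, and lies on chromosome 7 from 39255078 to 39266085. It had 9.54, 6.62 and 4.87 normalized counts in Obese libraries against 2.36, 7.96 and 2.08 in Lean libraries. Lean library 8 lay among the Obese libraries and the other Lean libraries lay below all of them. The log2 ratio of means was 0.76 with all libraries and 1.66 without Lean library 8, where the adjusted p in limma was 0.863.

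NFKBIZ, like BCL3, encodes a nuclear member of the IκB family that acts on transcription rather than holding dimers in the cytoplasm. It lies on chromosome 13 from 157261419 to 157273119 and had 153, 175 and 137 normalized counts in Obese libraries against 158, 155 and 120 in Lean libraries. The groups overlapped, with an interval of -0.30 to 0.51 around 0.10 in limma.

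**Figure D2:**
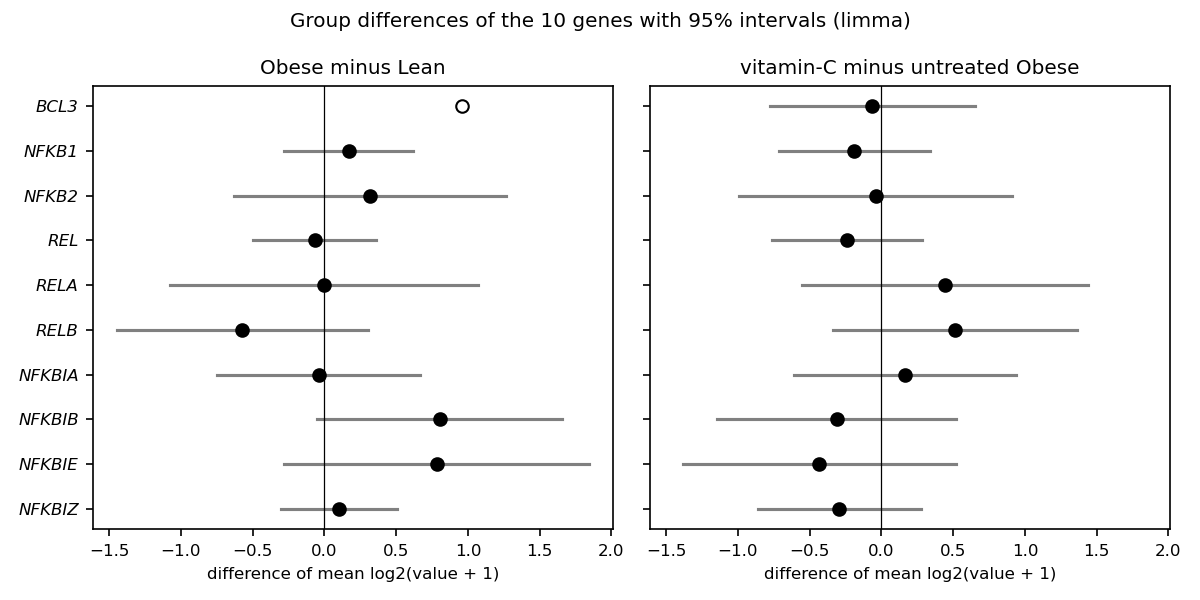
Difference of the group means of log2(value + 1) for each gene (horizontal axis) in Obese- minus Lean-MSCs (left) and vitamin-C-treated minus untreated Obese-MSCs (right), with 95% intervals from limma; the open circle is BCL3 in the contrast it was chosen on, drawn without an interval. Every interval drawn includes 0, and the widest are those of genes with low signal such as RELA and NFKBIE.

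The plot of differences shows the width of each interval. Of the 9 genes other than BCL3, 4 (NFKB1, REL, NFKBIA and NFKBIZ) had intervals within a 2-fold difference in either direction on the log2(value + 1) scale. The other 5 did not. The ratios of means of NFKBIB, NFKBIE and NFKB2, at 1.81, 1.697 and 1.41, were past the study's 1.4, and that of RELB, at 0.618, was past 0.7, but none met the p criterion. The median log2 ratio of the 10 genes was 0.15, with 7 above 0 and 3 below, beside a median of 0.0063 over all genes. These figures include BCL3 at 1.00, the value on which the family was chosen, so no shift of the family is read from them.

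In the Lean group, library 8 was the highest of its group in 5 of the 10 genes and the lowest in 0, while over all tested genes it was highest in 30.8% and lowest in 32.5%. Lean libraries 7 and 9 were each lowest in 5. In the Obese group, library 2 was lowest in 4 of the 10 genes, against 33.5% of all tested genes. The median coefficient of variation of the 10 genes was 32.2% in Obese-MSCs and 26.6% in Lean-MSCs, beside 25.7% and 23.8% over all tested genes.

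The surroundings of BCL3 were described with the 5 named genes on each side of it. Of these 10 neighbours, 1 was high in Obese-MSCs by the study's criteria (2.07% over all genes) and none was low, and 2 had Obese libraries that were all higher (5.7% over all genes). NECTIN2, a cell adhesion molecule gene on chromosome 6 from 51317386 to 51358665, starting 52.5 kb after BCL3, had 66.7, 81.6 and 62.6 normalized counts in Obese libraries against 46.4, 56.6 and 44.2 in Lean libraries. It was the neighbour that met the criteria, with a ratio of 1.43.

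CBLC, a ubiquitin ligase gene and the nearest neighbour at 9.79 kb after BCL3, had 37.1, 39.8 and 45.7 against 32.9, 34.8 and 37.0. Its groups also did not overlap, by a margin of less than 1 step of the low values, and its log2 ratio of 0.23 was below the ratio criterion. BCAM, between CBLC and NECTIN2, overlapped with a log2 ratio of 0.04, and CEACAM16, 27.6 kb before BCL3, had a log2 ratio of -0.41. The 10 neighbours had a median log2 ratio of -0.02 and a range of -0.52 to 0.52, beside the 1.00 of BCL3, on which the family was chosen and which is therefore no contrast with them.

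**Figure D3:**
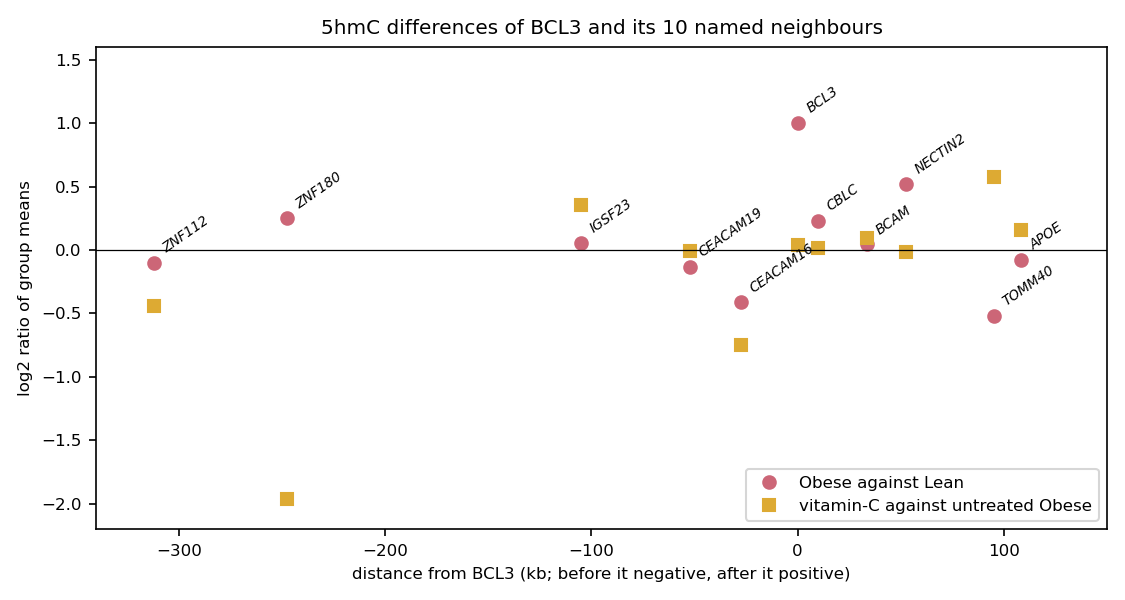
log2 ratio of group means (vertical axis) of BCL3 and the 5 named genes on each side, against distance from BCL3 in kb (horizontal axis), for Obese- against Lean-MSCs (circles) and vitamin-C-treated against untreated Obese-MSCs (squares). In Obese- against Lean-MSCs BCL3 lies at 1.00 and its neighbours between -0.52 and 0.52; the lowest square, ZNF180 at -1.96, rests on 0.884 to 1.01 normalized counts in the treated libraries.

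The genes whose profile over the 6 libraries came closest to that of BCL3 were VIT, PHLDA3 and SERPINB9, among 9467 genes in the upper 50% by mean. Likeness was the Euclidean distance between centred log2(value + 1) profiles, and it was 0.267, 0.324 and 0.343. VIT, which encodes the extracellular matrix protein vitrin, had 16.2, 18.0 and 19.9 normalized counts in Obese libraries against 11.2, 8.93 and 9.25 in Lean libraries. PHLDA3 encodes an inhibitor of AKT signalling that is induced by p53, and SERPINB9 an inhibitor of granzyme B. They were picked for their likeness to a gene that was itself picked for its group difference, so their log2 ratios of 0.88, 0.81 and 0.90 follow from the choice.

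The other genes of the pathway were taken as lists of kinases, adaptors, negative regulators and targets, of 63 genes in all, of which 59 were in the tables. TRAF2, TRAF3, BIRC2 and RNF31 are not analysed here. In Obese- against Lean-MSCs, 3 of the 59 (5.08%) were high by the study's criteria, beside 2.07% of all genes, and 0 were low, beside 2.43%. The Obese libraries were all higher in 6 (10.2%), beside 5.7% of all genes, and all lower in 0, beside 6.06%. The median log2 ratio was 0.14, with 38 genes above 0, 20 below and SHARPIN at 0 in all Lean libraries. By limma, 0 of 54 tested genes passed the adjusted p. Of the 54, 3 had an unadjusted p of 0.05 or less, beside 6.81% of all genes tested. These were TNIP1, CCND1 and IKBKE, the last named after its values were seen.

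Of the 10 kinase genes, 1 was high (2.07% of all genes) and none was low (2.43%). IKBKB, which encodes the catalytic subunit of IκB kinase that drives the classical pathway, had 24.2, 23.7 and 16.7 normalized counts in Obese libraries against 14.7, 14.9 and 13.4 in Lean libraries. The groups did not overlap. The log2 ratio was 0.59 (limma adjusted p = 0.779). The median log2 ratio of the kinase list was 0.13.

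Of the 13 adaptor and ubiquitin ligase genes measured, none was high (2.07% of all genes) or low (2.43%). TRAF6, the ubiquitin ligase downstream of Toll-like and interleukin-1 receptors, had the highest log2 ratio among those in the upper 50% by mean, 0.40, and BIRC3, a ligase of tumour necrosis factor receptor complexes, the lowest, -0.11. Both had overlapping groups, and the median of the list was 0.04.

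Of the 10 negative regulators, 1 was high (2.07% of all genes) and none was low (2.43%). In 3 the Obese libraries were all higher (5.7% of all genes). TNIP1, a partner of the deubiquitinase A20 that limits NF-κB, had 123, 96.6 and 115 normalized counts in Obese libraries against 45.6, 91.4 and 64.7 in Lean libraries. Its log2 ratio of means was 0.73, between 0.52 and 1.02 with each library left out, and its limma adjusted p was 0.668. CYLD, a deubiquitinase, and TRAF1, an adaptor induced by NF-κB, were the other 2 without overlap, with log2 ratios of 0.55 and 0.41. Both were named after their values were seen. The lowest Obese value of CYLD, 30.9, exceeded its highest Lean value, 30.3, by less than 1 step of the low values. The median of the list was 0.25.

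Of the 26 target genes, 1 was high (2.07% of all genes) and none was low (2.43%). CXCL10, a chemokine that attracts T cells, had 4.61, 4.73 and 5.84 normalized counts in Obese libraries against 1.20, 1.98 and 4.09 in Lean libraries. Its log2 ratio of 1.06 rests on low values, with a Lean mean of 2.42 normalized counts, and limma did not test it. CCND1 (cyclin D1), also named after its values were seen, had 53.8, 34.0 and 62.0 against 29.3, 28.8 and 24.7, a log2 ratio of 0.85 (limma adjusted p = 0.668). The median of the targets was 0.16, and the lists overlap in function with the 10 family genes since several of these are themselves targets.

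**Figure D4:**
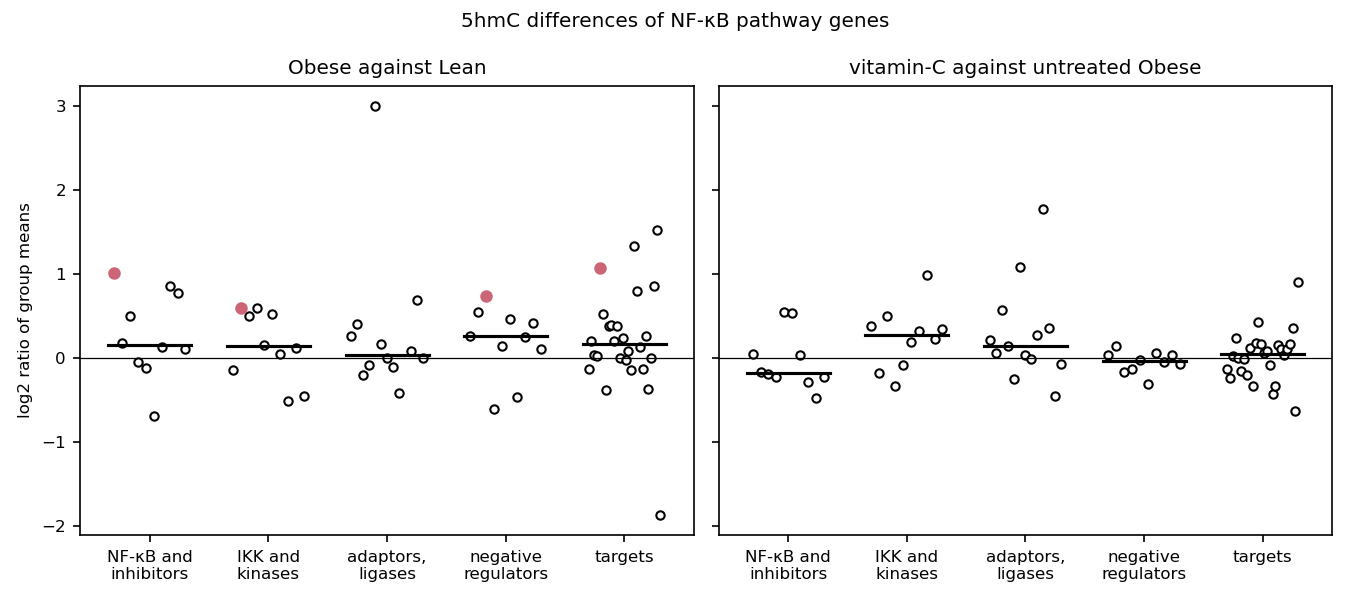
log2 ratio of group means (vertical axis) of the 10 family genes and of the kinase, adaptor, negative regulator and target lists, in Obese- against Lean-MSCs (left) and vitamin-C-treated against untreated Obese-MSCs (right); each point is a gene, lines are medians, and filled points met the study's criteria. In Obese- against Lean-MSCs BCL3, IKBKB, TNIP1 and CXCL10 are filled; with vitamin-C no point is.

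With vitamin-C, none of the 10 family genes met the study's criteria, as high (1.11% of all genes) or as low (0.806%). The treated libraries were all higher in 0 of the 10 genes, beside 3.24% of all genes, and all lower in 0, beside 2.67%. By limma, 0 of the 10 genes passed the adjusted p and 0 had an unadjusted p of 0.05 or less, and over all 15194 genes tested 0 (0%) passed and 148 (0.974%) had an unadjusted p of 0.05 or less. The two-sided exact permutation p of the 10 genes lay between 0.3 and 1. Each treated library correlated across genes more closely with the untreated libraries (median r of 0.886 to 0.9002) than with the other treated ones (0.865 to 0.887), and whether cultures shared a pig is not given in the labels. With treated and untreated libraries matched as blocks in each of the 6 possible ways, an alternative chosen after seeing the data, limma again passed 0 of the 10 genes, with 0 at an unadjusted p of 0.05 or less. The untreated libraries here are those compared with Lean-MSCs, with values 1.10 to 1.13 times as high in this table (median over genes).

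BCL3 had 21.1, 37.0 and 57.6 normalized counts in the vitamin-C libraries and 31.8, 40.7 and 40.0 in the untreated libraries of this table. The treated values spanned the untreated ones, with library 4 the lowest and library 6 the highest of all 6. The means were 38.6 ± 18.3 and 37.5 ± 4.94 (SD, n = 3 each), so the treated group varied more, by a coefficient of variation of 47.4% against 13.2%. The log2 ratio of means was 0.04 with all libraries, -0.37 without vitamin-C library 6 and 0.33 without vitamin-C library 4. The limma interval of -0.77 to 0.65 around -0.06 (adjusted p = 0.99998) includes a fall of 0.77 and a rise of 0.65 on the log2 scale. The untreated libraries are the ones on which BCL3 was chosen, so this comparison is not independent of the choice.

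**Figure D5:**
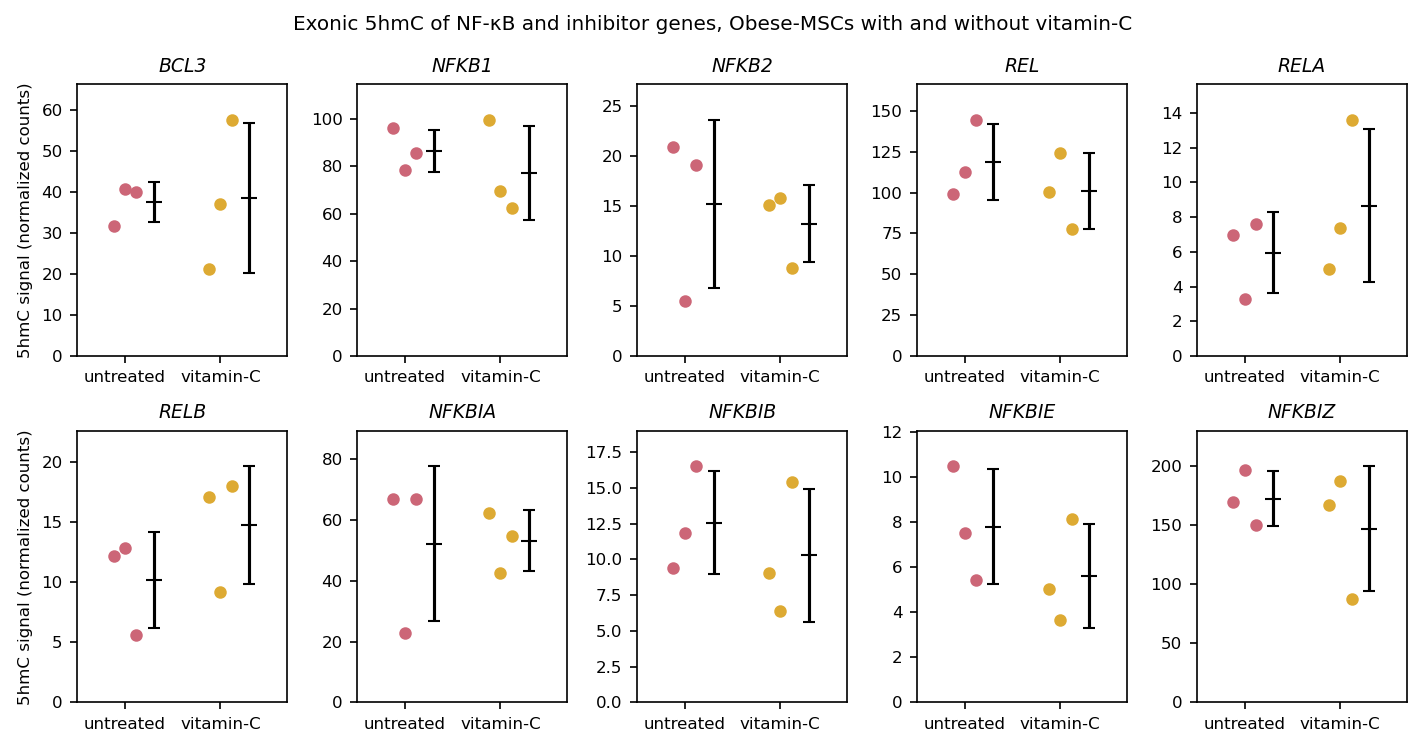
5hmC signal in normalized counts (vertical axes, each from 0) of the 10 genes in untreated Obese-MSCs (red) and vitamin-C-treated Obese-MSCs (yellow); points are libraries and bars are mean ± SD (n = 3 each). The groups overlap for all 10 genes, and BCL3 runs from 21.1 to 57.6 in the treated libraries.

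Among the subunits, RELA and RELB had the highest log2 ratios with vitamin-C, 0.54 and 0.53. RELA had 5.04, 7.37 and 13.6 normalized counts in the treated and 6.96, 3.29 and 7.61 in the untreated libraries. RELB had 17.1, 9.14 and 18.0 against 12.2, 12.8 and 5.58. For both genes library 6 was the highest of all, and without it the log2 ratio was 0.06 for RELA and 0.36 for RELB.

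NFKB1 had 99.6, 69.4 and 62.5 normalized counts with vitamin-C and 96.0, 78.4 and 85.5 without it. NFKB2 had 15.1, 15.8 and 8.82 against 21.0, 5.53 and 19.1, and REL had 101, 124 and 77.7 against 99.2, 113 and 144. Their log2 ratios were -0.17, -0.20 and -0.24. On the log2(value + 1) scale all 3 intervals in limma lay within a 2-fold difference, with that of NFKB2 reaching -0.99. Vitamin-C library 6 was the lowest of its group in each of the 3.

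Among the inhibitors, NFKBIE had the lowest log2 ratio of the 10 genes, -0.48, with 5.03, 3.64 and 8.16 normalized counts in the treated and 10.5, 7.52 and 5.43 in the untreated libraries. NFKBIB had 9.06, 6.39 and 15.4 against 9.37, 11.8 and 16.5, a log2 ratio of -0.29. For both, library 6 was again the highest treated library, and without it the log2 ratios were -0.85 and -0.70, with no call by the study's criteria.

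NFKBIA had 62.4, 42.5 and 54.6 normalized counts with vitamin-C and 66.8, 22.8 and 66.8 without it. The low value of untreated library 2 recurs here because it is the same library as in the comparison with Lean-MSCs. NFKBIZ had 167, 187 and 87.4 against 170, 197 and 150, and library 6 was the lowest of all 6. The log2 ratios of NFKBIA and NFKBIZ were 0.03 and -0.23, and without library 6 they were 0.0087 and 0.04.

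The vitamin-C library 6 was therefore the highest of its group in 5 of the 10 genes (BCL3, RELA, RELB, NFKBIB and NFKBIE) and the lowest in 4 (NFKB1, NFKB2, REL and NFKBIZ). Over all tested genes it was the highest in 34.6% and the lowest in 38.2%. The median log2 ratio of the 10 genes was -0.18, with 4 above 0 and 6 below, beside 0.0045 over all genes. Intervals lay within a 2-fold difference for 6 genes (BCL3, NFKB1, NFKB2, REL, NFKBIA and NFKBIZ) and went beyond it for the other 4.

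Around BCL3, none of the 10 neighbours met the study's criteria with vitamin-C, as high (1.11% of all genes) or as low (0.806%). The groups overlapped for all of them, while over all genes the treated libraries were all higher in 3.24% and all lower in 2.67%. NECTIN2 had 51.3, 74.0 and 107 normalized counts in the treated and 74.2, 92.1 and 68.9 in the untreated libraries, with library 4 the lowest and library 6 the highest of all 6, as for BCL3. CBLC had 49.3, 46.3 and 42.9 against 41.4, 45.1 and 50.3, and there library 4 was the highest of its group. The median log2 ratio of the neighbours was 0.0040. The profiles closest to BCL3 in this table, among 9496 genes in the upper 50% by mean, were those of NEU4, a sialidase gene, LOC110262036 and the cytoskeletal actin gene ACTB, at distances of 0.187, 0.225 and 0.238. ACTB had 44.3, 62.9 and 109 normalized counts in the treated and 56.9, 69.7 and 71.0 in the untreated libraries, also with its widest spread in the treated group. These genes differ from those closest to BCL3 in the table of Obese- and Lean-MSCs.

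Of the 59 pathway genes, 0 were high (1.11% of all genes) and 0 low (0.806%) with vitamin-C. The treated libraries were all higher in 1 gene (1.69%), beside 3.24% of all genes, and all lower in 0, beside 2.67%. That gene was TAB1, which encodes a subunit that activates the kinase MAP3K7 upstream of IκB kinase and which was named after its values were seen, with 8.05, 11.09 and 16.3 normalized counts in the treated and 6.04, 5.38 and 6.45 in the untreated libraries. Its log2 ratio was 0.99. The median log2 ratio of the 59 genes was 0.05, with 35 above 0 and 24 below. By limma 0 of 55 tested genes passed the adjusted p. An unadjusted p of 0.05 or less was found for 0, beside 0.974% of all genes tested.

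The genes that met the criteria in Obese-MSCs did not meet them with vitamin-C. IKBKB had 18.1, 21.3 and 24.2 normalized counts in the treated and 26.9, 26.8 and 18.5 in the untreated libraries, a log2 ratio of -0.18. TNIP1 had 87.5, 99.0 and 145 against 137, 109 and 127, a log2 ratio of -0.17. CXCL10 had 3.02, 11.3 and 2.57 against 5.15, 5.37 and 6.41, a log2 ratio of -0.0052. All 3 had overlapping groups, and both comparisons share the untreated libraries. Among the adaptors, MALT1, a paracaspase gene, had the lowest log2 ratio in the upper 50% by mean, -0.07. The summed signal of the 4 MSC markers was 308 to 338 with vitamin-C and 314 to 359 without it, and that of PTPRC, CD34 and CD14 was 68.0 to 91.5 and 68.7 to 78.7.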

How the data were processed

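Swine hMeDIP-seq libraries of 3 groups (n = 3 each) were grouped by the submitters' labels, and all 12 columns of both tables were used. The authors aligned paired reads to susScr 11.1 with Bowtie 2 (v2.3.3.1), removed duplicates with PICARD MarkDuplicates (v1.67), counted exonic reads per gene with htseq-count (v0.9.1) and processed the counts with edgeR (v3.28.1). The deposited values are a fractional 5hmC signal in normalized counts, never negative. They could not be turned back into whole reads, so neither a count test nor a counting interval was possible, and errors are the spread between libraries. A value combines all exons of a gene, reads on an exon of overlapping genes cannot be assigned to either, and exon lengths were not used here, so levels are not compared between genes. In the table of treated and untreated Obese-MSCs, 645 residual values around 0 (below 1e-06) were set to 0, and 25 gene names had been turned into dates.

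With limma 3.58.1 (R 4.3.3), log2(value + 1) of all genes in the upper 80% by mean was modelled with a mean-variance trend, and Benjamini-Hochberg adjusted p was taken over all genes tested. The pseudocount of 1 lowers the fitted differences of low genes, and log2 ratios of means carry no pseudocount. The study's criteria were applied to the values as deposited. Single genes were tested two-sided by exact permutation of the libraries, with 20 arrangements. The main comparison used no pairing, since the labels match no treated with an untreated library. A mean of at most 3 normalized counts over the 6 libraries of a table was treated as low. The rest was done in Python 3.11.15 (scipy 1.17.1, numpy 2.4.6, matplotlib 3.10.9, pandas 2.3.3). Positions are those of RefSeq genes in Sscrofa11.1, matched by symbol.

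The family, the gene lists and the tests were chosen with earlier results of these data known. The genes named are the 10 family genes, the pathway genes that met the study's criteria (in a list with none, the highest and the lowest log2 ratio in the upper 50% by mean), the 5 named genes on each side of BCL3, and the 3 genes closest to it in profile. A gene that this rule selects is not reported here. The alternatives were other pseudocounts, filters, variance models and thresholds, quantile normalization, rescaling by size factors, leaving out each library and, chosen after seeing the data, blocks for each possible matching of treated and untreated libraries. On simulated data with 200 genes changed by 3-fold, limma recovered 85% of them in the table of Obese- and Lean-MSCs (8 other genes called among 15230) and 93% in the other (9 among 15221). The study's criteria recovered 89% (616 other genes called among 18933) and 96% (669 among 18992). The changed genes came from the upper 50% by mean, and all genes were given the same dispersion, set from the spread between libraries. Recovery was therefore not measured for genes with lower signal or wider spread, or for smaller differences. Human libraries, mRNA sequencing and 5hmC peaks were not analysed here.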

Additional observations from a re-analysis of the deposited data

How the results depend on the processing

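By limma, 0 of the family genes passed the adjusted p under any alternative run in either comparison, with BCL3 left aside in Obese- against Lean-MSCs. These alternatives were other pseudocounts, filters, variance models and scalings, and each library left out. With genes kept in the upper 50% by mean, 5 of the 10 remained in Obese- against Lean-MSCs, BCL3 among them, and 6 with vitamin-C. No pairing is given by the labels, and blocks for all 6 ways to match treated and untreated libraries, chosen after seeing the data, left 86 to 372 of all genes at an unadjusted limma p of 0.05 or less and 0 past the adjusted p. By the study's criteria, BCL3 was the only family gene called in Obese- against Lean-MSCs under every alternative except without untreated Obese library 2, where NFKBIA joined it (2 genes), so the count ranged from 1 to 2 with libraries left out in turn. BCL3 was chosen on these values, so neither its call nor its log2 ratios in this comparison say anything about stability. With vitamin-C the count was 0 throughout. Of the log2 ratios of means, BCL3 included, 97 of 100 values under alternatives in Obese- against Lean-MSCs moved by less than the spread between libraries. The others were those of REL without Obese library 3 (-0.23), RELA without Lean library 8 (0.69) and NFKBIE without Lean library 8 (1.66). With vitamin-C all 100 moved by less than this spread. Leaving out 1 of 3 libraries can rarely move a group mean by that much, so these counts do not measure stability. Smaller moves still changed signs, as for NFKBIA without Obese library 3 (-0.11) and BCL3 with vitamin-C without library 6 (-0.37). A p threshold of 0.01 lowered the count over all genes from 852 to 216 and, with vitamin-C, from 364 to 66. With a library left out, 1 gene in all passed limma's adjusted p without Obese library 1 and 1 without Obese library 2. RELA, RELB, NFKB2, NFKBIB and NFKBIE had lower normalized counts on average than the other family genes. Their intervals in Obese- against Lean-MSCs exceed a 2-fold difference, and whether low signal accounts for this was not tested.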
